A study of Homo sapiens with 12 samples.

Results

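The mitochondrial ribosomal protein genes studied here are the protein-coding genes of the count table with a symbol that starts with MRPL or MRPS followed by a number. The pattern matched 166 of the 70116 rows, and 78 of these rows were protein-coding genes and are the members. The other 88 rows, mostly pseudogenes, were left out. The RNA came from MiaPaCa-2, an established line of human pancreatic cancer cells. The cells had received small interfering RNAs (siRNAs), which direct the degradation of matching transcripts. The 4 groups were a control siRNA (siControl) and siRNAs against SLC25A1, ACLY and ACO1 (siSLC25A1, siACLY and siACO1), each with 3 replicate libraries, so that all 12 libraries share 1 cell line and a transfection. SLC25A1 encodes the citrate carrier of the inner mitochondrial membrane, ACLY the enzyme that makes cytosolic acetyl-CoA from citrate, and ACO1 the cytosolic aconitase, which also acts as an iron-regulated RNA-binding protein. The labels do not say how many siRNAs were used for a target, how long the cells were kept after transfection, or whether replicates were separate cultures. The p-values therefore measure the spread between these libraries, which may be technical.

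Mitochondria keep a ribosome of their own, which makes the few proteins encoded by mitochondrial DNA, all of them subunits of the respiratory chain and of ATP synthase. Its RNAs come from mitochondrial DNA, but every one of its proteins is encoded in the nucleus, made in the cytosol and imported. The large subunit (MRPL genes, with a few exceptions) forms the peptide bond, and the small subunit (MRPS genes) binds the mRNA and reads its codons. Some of the proteins have a counterpart in the bacterial ribosome, and others occur in mitochondrial ribosomes alone. By this division the members held 30 bacterial-type and 21 mitochondria-specific proteins of the large subunit, and 16 and 10 such proteins of the small subunit. MRPS30 and MRPS18A were counted with the large subunit, where their proteins sit despite the S of the symbol. MRPS36, now known as a subunit of the 2-oxoglutarate dehydrogenase complex, was placed in no subunit.

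Promoters of nuclear genes for mitochondrial proteins are known for binding sites of NRF1, of ETS-family factors such as GABP, and of YY1. RefSeq promoter windows (build GRCh38.p14, 250 bases before to 50 bases after a gene's start) were matched by symbol for 70 of the 78 members. The windows were searched on both strands for GCGC and TGCGC separated by 1 base of any kind (NRF1-type), CCGGAAG (ETS-type) and AANATGGCG (YY1-type), and no match of one motif shared bases with a match of another. The ETS-type letters were in 29 of the 70 windows (41.4%) against 14.2% of 15842 windows of protein-coding genes. The YY1-type letters were in 18 windows (25.7%) against 4.81%, and the NRF1-type letters in 8 (11.4%) against 8.57%. At least 1 of the 3 was in 47 windows (67.1%) against 24.2%. Most YY1-type matches lay after the gene's start, in the transcribed part of the window, as from base 9 in MRPL42. Whether those letters belong to coding sequence was not tested. A match describes the letters of a window and was not tested as a binding site. Windows of some members whose expression is described below are given with the match in capitals, read in the direction of the gene. Where the capitals read CTTCCGG, the ETS-type letters lie on the opposite strand, and the NRF1-type match of MRPL57 also lies there. One match is shown per gene; MRPS22 and MRPS34 held 3 ETS-type matches each, MRPL27 held another, and MRPL30 held an ETS-type match as well.
MRPL17 (NRF1-type, chr11:6683402-6683431, minus strand): aggctctgatGCGCATGCGCaaacacgttc
MRPL30 (NRF1-type, chr2:99181058-99181087, plus strand): tgatacccagGCGCCTGCGCtctctttcta
MRPL57 (NRF1-type, chr13:21176574-21176603, plus strand): cctcggctctGCGCAGGCGCagtcctctct
MRPL3 (ETS-type, chr3:131502985-131503014, minus strand): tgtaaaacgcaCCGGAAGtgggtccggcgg
MRPL27 (ETS-type, chr17:50373218-50373247, minus strand): ccacgcagggcCCGGAAGtagatctcctga
MRPL54 (ETS-type, chr19:3762650-3762679, plus strand): gccactgacgtCTTCCGGaaacgtgcactt
MRPS22 (ETS-type, chr3:139343896-139343925, plus strand): tctataagggcCCGGAAGacttccggccct
MRPS31 (ETS-type, chr13:40771204-40771233, minus strand): aaggcgccaggCCGGAAGcggaagagaggg
MRPS34 (ETS-type, chr16:1773145-1773174, minus strand): gacaccggcctCTTCCGGtgacttccggcc
MRPL42 (YY1-type, chr12:93467512-93467541, plus strand): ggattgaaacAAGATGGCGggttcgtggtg
The windows of MRPS5, MRPS6, MRPS15, MRPL18, MRPL19 and MRPL34, whose changes are also described below, held no match of the 3 motifs, and those of MRPL10 and MRPL35 were not matched. Windows with matches that are not printed include those of MRPS9 (NRF1-type and YY1-type), MRPL51 and MRPL58 (2 ETS-type each). MRPL9 and MRPS30 (YY1-type) and MRPS18C (ETS-type) are among them too.

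**Figure D1:**
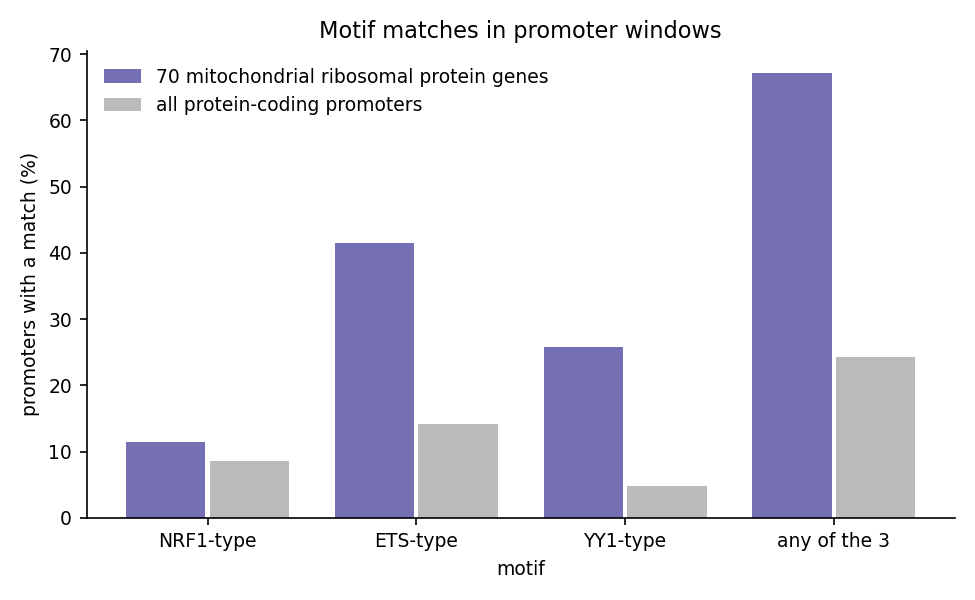
Share of promoter windows (percent, y axis) that hold each motif (x axis), for the 70 matched mitochondrial ribosomal protein genes and for all 15842 windows of protein-coding genes. The ETS-type and YY1-type shares are 41.4% and 25.7% in the mitochondrial ribosomal protein genes against 14.2% and 4.81%, and the NRF1-type shares are 11.4% and 8.57%.

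Of the 78 members, 73 had enough counts to be tested, and 5 had not. MRPS18B and MRPL53 were listed at 0 in all 12 libraries, MRPL23 had 1 count in 1 library, MRPS12, a protein of the decoding site, had 2 counts in 1 library, and MRPL45 had 0 to 5 counts per library. Some genes near MRPS18B (PPP1R10 and FLOT1) and near MRPS12 (SARS2) were also listed at 0 in every library. They were chosen after the values were seen. A 0 in this table therefore does not show that a gene is silent. MRPS24 passed the filter with 11 to 36 counts per library. In 15 members, 13 of them tested, reads could have been shared with another gene, because at least 20% of the exon bases overlap another gene or at least 20% of the 31-base stretches of the transcripts occur elsewhere. MRPL9, MRPL12, MRPL38, MRPL51, MRPS18A, MRPS18C and MRPS24 are among them, and their values are uncertain.

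Levels differed widely between members. Per kilobase of exon, the level in siControl spanned 33.6-fold over the 60 tested members whose counting was not uncertain, with a median of 35.5 CPM (read counts scaled to library size) per kilobase and quartiles of 18.3 and 57.1, and 37 of the 60 lay within 2-fold of the median. MRPL3, a core protein of the large subunit, and MRPL37, a mitochondria-specific one, were highest at 124 ± 1.34 and 121 ± 3.00 CPM per kilobase (SD, n = 3). These neighbours differed by less than the sum of their SDs. MRPS15, which binds the small ribosomal RNA, followed at 95.6 ± 3.49, next to MRPS10 at 93.1 ± 1.97. The lowest were MRPL46 at 5.72 ± 0.580, MRPL2 at 4.04 ± 0.0902 and MRPL42 at 3.69 ± 0.186 CPM per kilobase. MRPL42 has 16006 annotated exon bases, the divisor of its value, against a median of 1641 over the tested members. Among the uncertain members, MRPL38 was at 2.89 ± 0.252 and MRPS24 at 0.850 ± 0.311 CPM per kilobase.

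**Figure D2:**
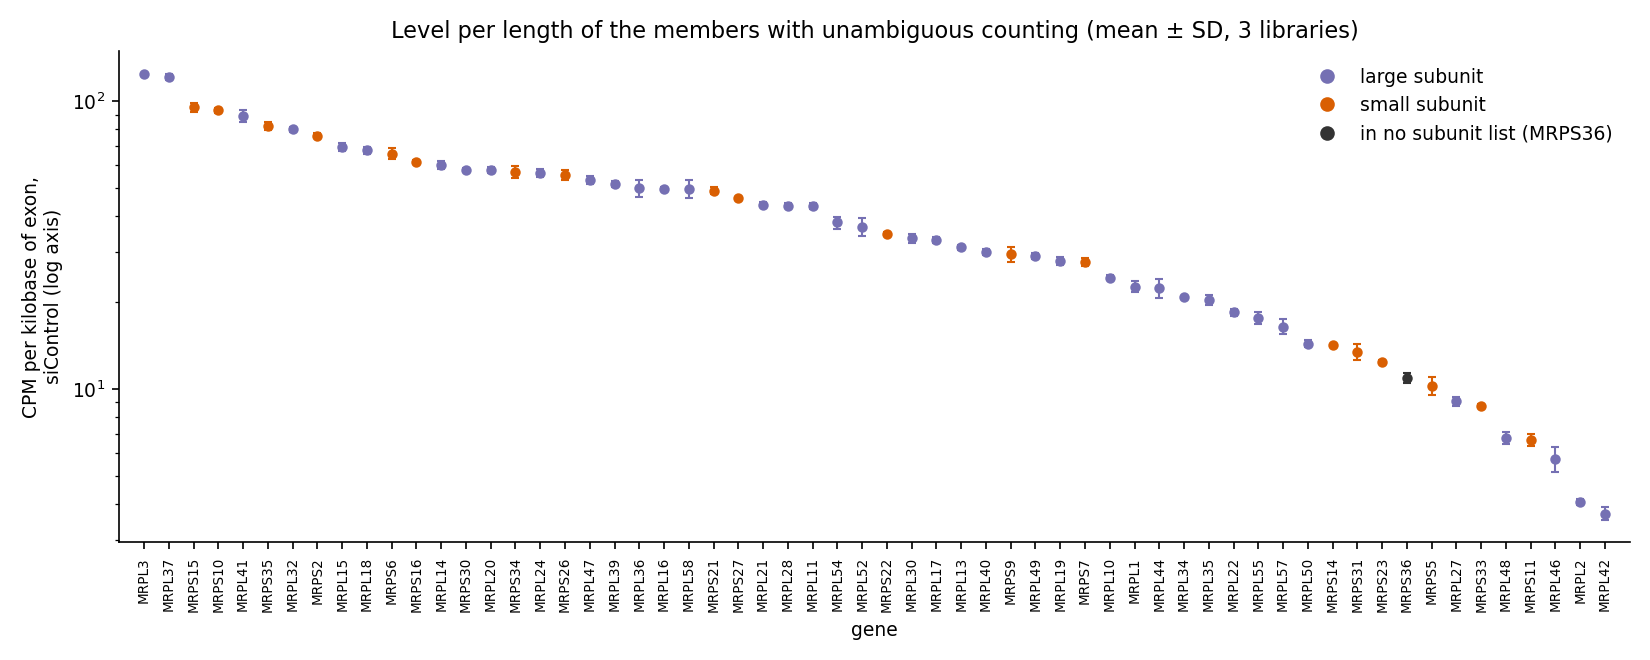
Level in siControl (CPM per kilobase of exon, log axis; mean ± SD of 3 libraries) for the 60 tested members whose counting was not uncertain, in falling order from left to right, with large-subunit genes, small-subunit genes and MRPS36 in different colours. MRPL3 and MRPL37 lead at 124 and 121, and MRPL2 and MRPL42 end the order at 4.04 and 3.69.

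Library totals ran from 24159424 to 43792811 counts. The targeted transcripts were at 8.75% (SLC25A1), 7.24% (ACLY) and 3.72% (ACO1) of their siControl level in the groups aimed at them. KRT8, KRT18, KRT19 and VIM were present in every library (counting uncertain for all but KRT19), while the epithelial marker EPCAM had at most 2 counts in a library. Of 13 markers of blood, endothelial, stromal, acinar and islet cells, 6 were listed at 0 in all libraries and 1, the collagen gene COL1A2, was tested; no other marker passed 9 counts in a library. The summed level of these markers, nearly all of it COL1A2, was 875 to 895 CPM in siControl, 784 to 845 in siSLC25A1, 826 to 876 in siACLY and 1546 to 1592 in siACO1. COL1A2 was higher in siACO1 by 0.83 on the log2 scale, and KRT8, KRT18 and KRT19 had log2 fold changes of -0.83, -0.78 and -0.76; their part in the members' results was not tested. In bulk RNA, fewer cells of a kind and less RNA per cell cannot be told apart.

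The members together took 4676 ± 37.7 CPM in siControl (mean ± SD, n = 3), 4411 ± 112 in siSLC25A1, 4504 ± 32.7 in siACLY and 4454 ± 306 in siACO1. The 3 siSLC25A1 sums and the 3 siACLY sums all lay below the 3 siControl sums. The siACO1 sums did not, because they were 4264, 4292 and 4807 CPM in replicates 1, 2 and 3. In siACO1 replicate 3, 67 of the 73 tested members were above their group mean, against 12 in each of replicates 1 and 2. Its median deviation from the siControl mean was 0.06 on the log2 scale, against -0.11 and -0.13 in the other two. The same library stood apart over all genes: its deviation from the group mean ran against exon length with Spearman's rho of -0.25 across 15384 genes, against 0.14 and 0.19 in replicates 1 and 2, and its counts differed from theirs with a chi-square per degree of freedom of 11.3 and 12.1, against 2.27 to 5.50 in the other 10 pairs of replicates. The members are short, with a median of 1641 exon bases against 3146 over those genes. Counts of calls in siACO1 against siControl are therefore given with and without this library, and with a correction for exon length.

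**Figure D3:**
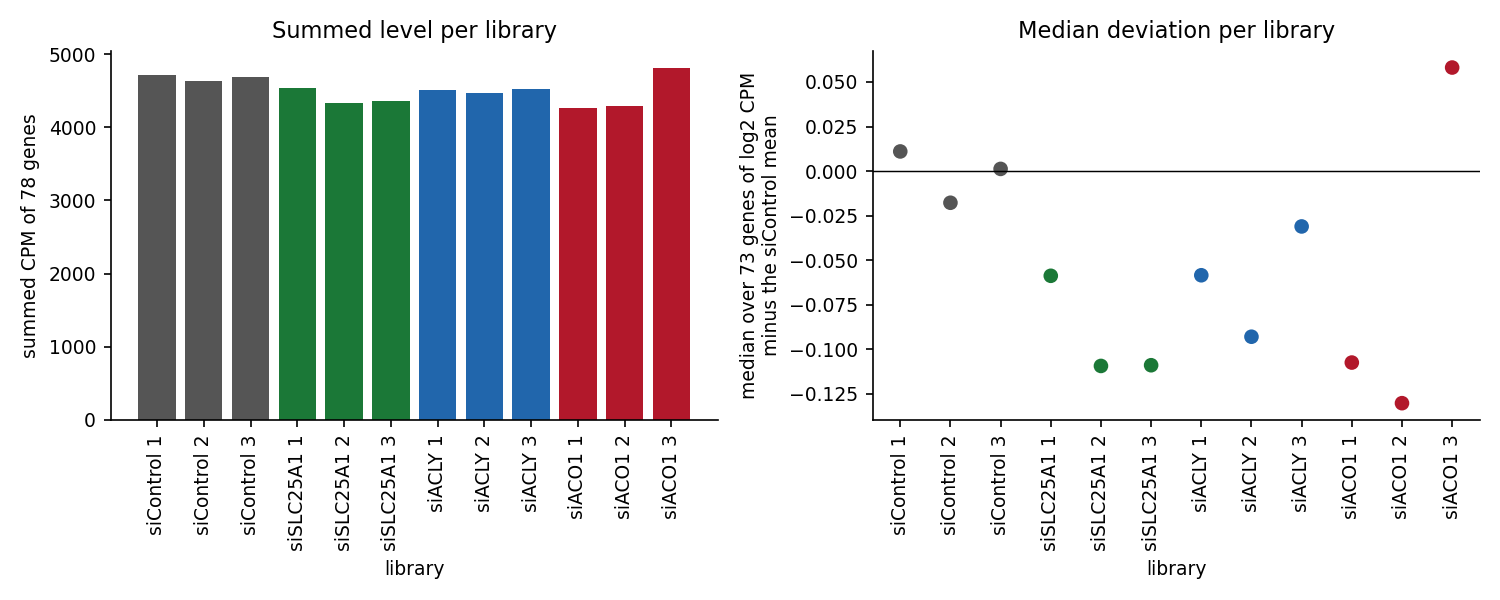
Left, summed CPM of the members in each library, with bars starting at 0; right, median over the 73 tested members of log2 CPM minus the siControl mean, 1 point per library. The siACO1 libraries lie at -0.11, -0.13 and 0.06, so replicate 3 is the highest of all 12 while replicate 2 is the lowest.

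Each knockdown was compared with siControl in edgeR, and genes with an adjusted p below 0.05 were called. The changes of the members were small: the largest called change against siControl was -0.54 on the log2 scale. A log2 change of at least 0.5 was called for 0, 1 and 2 members in siSLC25A1, siACLY and siACO1, against 4.27%, 11.4% and 11.3% of all genes. Falls outnumbered rises among the called members in each of the 3 comparisons, which share their control libraries, except in siACLY when library totals replaced TMM scaling or when siControl replicate 1 was left out (below). The median log2 fold change of the 73 members was -0.08 in siSLC25A1, -0.06 in siACLY and -0.06 in siACO1, where the median of all 16197 genes tested was between -0.0045 and 0.0077.

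**Figure D4:**
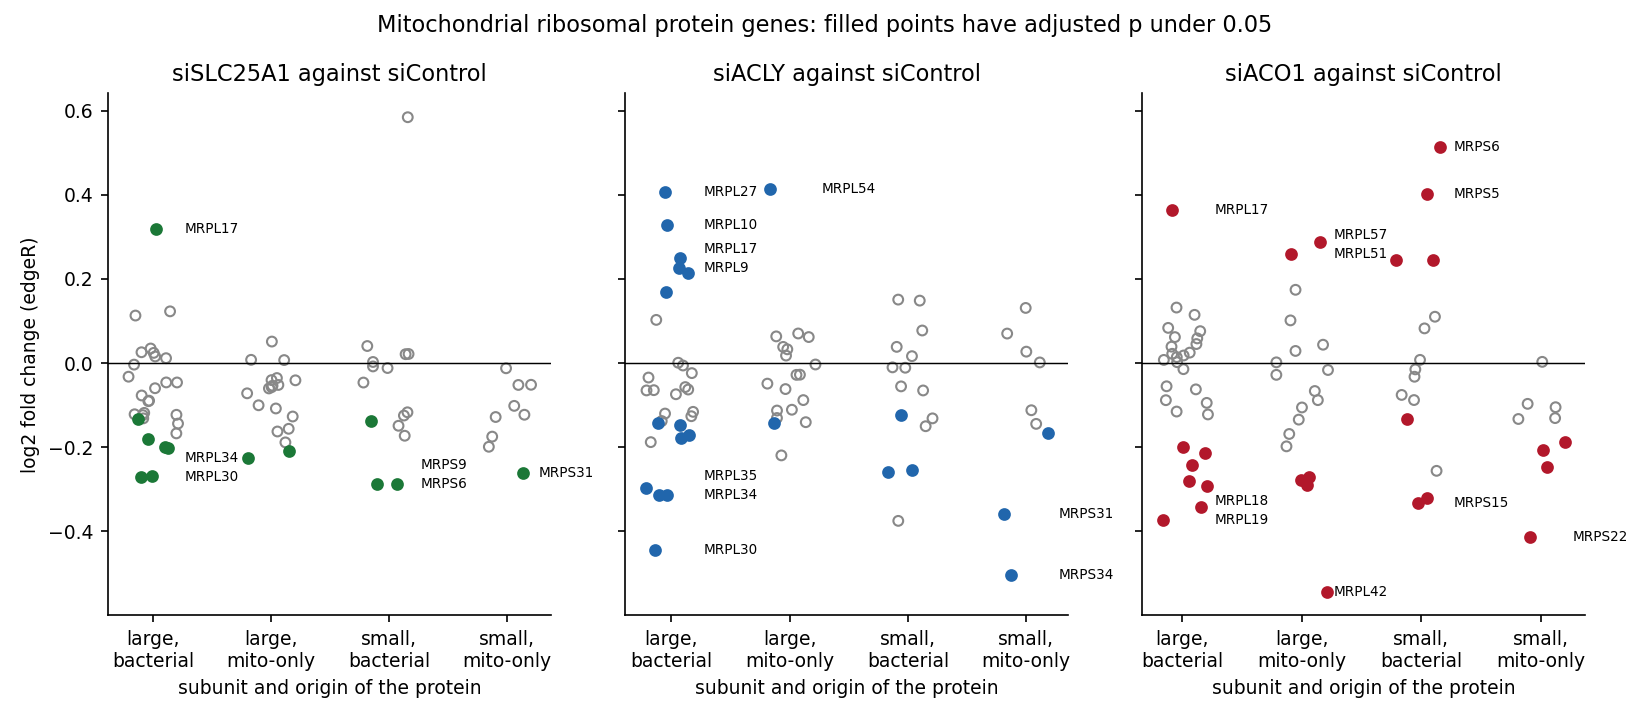
Log2 fold change against siControl (y axis) of the 72 tested members placed in a subunit, by subunit and by whether the protein has a bacterial counterpart (x axis), with 1 panel for each knockdown. Filled points were called (adjusted p under 0.05) and the largest called changes are named; in siACLY no called small-subunit point lies above 0, while in siACO1 MRPS6 and MRPS5 lie highest. The open point at 0.58 in siSLC25A1 is MRPS24, with few counts and an SE of 0.38; MRPS36, in no subunit, is not drawn.

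MRPL17, a protein near the exit of the peptide tunnel of the large subunit, was higher in all 3 knockdowns. The gene (ENSG00000158042.9, chromosome 11, 6680782 to 6683401, minus strand, in GENCODE 29 on GRCh38) was at 64.3, 64.1 and 66.5 CPM in siControl. It was at 81.4, 82.9 and 78.8 CPM in siSLC25A1, at 72.6, 71.8 and 87.8 in siACLY and at 77.0, 82.3 and 91.0 in siACO1. Every knockdown library was above every control library. The log2 fold changes were 0.32 (SE 0.07, adjusted p 0.00119), 0.25 (SE 0.07, adjusted p 0.00441) and 0.36 (SE 0.07, adjusted p 0.000126) in siSLC25A1, siACLY and siACO1. The siACLY call rested on replicate 3 of that group, without which the log2 fold change was 0.15 and was not past the threshold. Its window above holds an NRF1-type match.

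MRPL30, a bacterial-type protein of the large subunit, was lower in all 3 knockdowns. This gene (ENSG00000185414.20, chromosome 2, 99181079 to 99197626, plus strand) was at 92.8, 97.2 and 90.8 CPM in siControl and at 82.3, 74.9 and 75.5 in siSLC25A1. In siACLY it was at 66.4, 71.2 and 69.0 CPM, and in siACO1 at 77.7, 75.4 and 84.4. No knockdown library reached a control library, and the siACLY libraries were below all others. The log2 fold changes were -0.27 (SE 0.05, adjusted p 0.000211), -0.44 (SE 0.05, adjusted p 4.85e-08) and -0.24 (SE 0.05, adjusted p 0.000316). Its exons overlap another gene over 19.5% of their bases, just under the limit set for uncertain counting.

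MRPL3, which lies close to the peptidyl transferase centre and had the highest level per length, was lower by a smaller amount. It was at 221, 223 and 226 CPM in siControl, at 208, 201 and 203 in siSLC25A1, at 201, 200.5 and 189.9 in siACLY and at 179, 181 and 192 in siACO1. The groups did not overlap siControl. The log2 fold changes were -0.13 (SE 0.04, adjusted p 0.0183), -0.18 (SE 0.04, adjusted p 0.000689) and -0.28 (SE 0.04, adjusted p 1.86e-06). The siSLC25A1 call was lost without siControl replicate 2 or 3, without siSLC25A1 replicate 2 or 3, and with a correction for exon length. Genes called in 1 direction in all 3 comparisons were not counted over all genes tested. The comparisons also share their control libraries, so such calls do not set the members apart. MRPS31, a mitochondria-specific protein of the small subunit, completed the members called in this way. It was at 18.8, 21.2 and 19.1 CPM in siControl, and at 14.3, 17.2 and 14.8 in siACLY, where the log2 fold change was -0.36 (SE 0.08, adjusted p 0.000969). The siSLC25A1 libraries (17.2, 16.3 and 15.8 CPM) and the siACO1 libraries (16.3, 16.1 and 18.8 CPM) were lower by 0.26 (SE 0.08, adjusted p 0.0247) and 0.21 (SE 0.08, adjusted p 0.0481) on the log2 scale. The siSLC25A1 call was lost without siControl replicate 2 or without siSLC25A1 replicate 2 or 3. The siACO1 call was lost without siControl replicate 2 or 3 or siACO1 replicate 1 or 2, and with library totals or DESeq2.

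**Figure D5:**
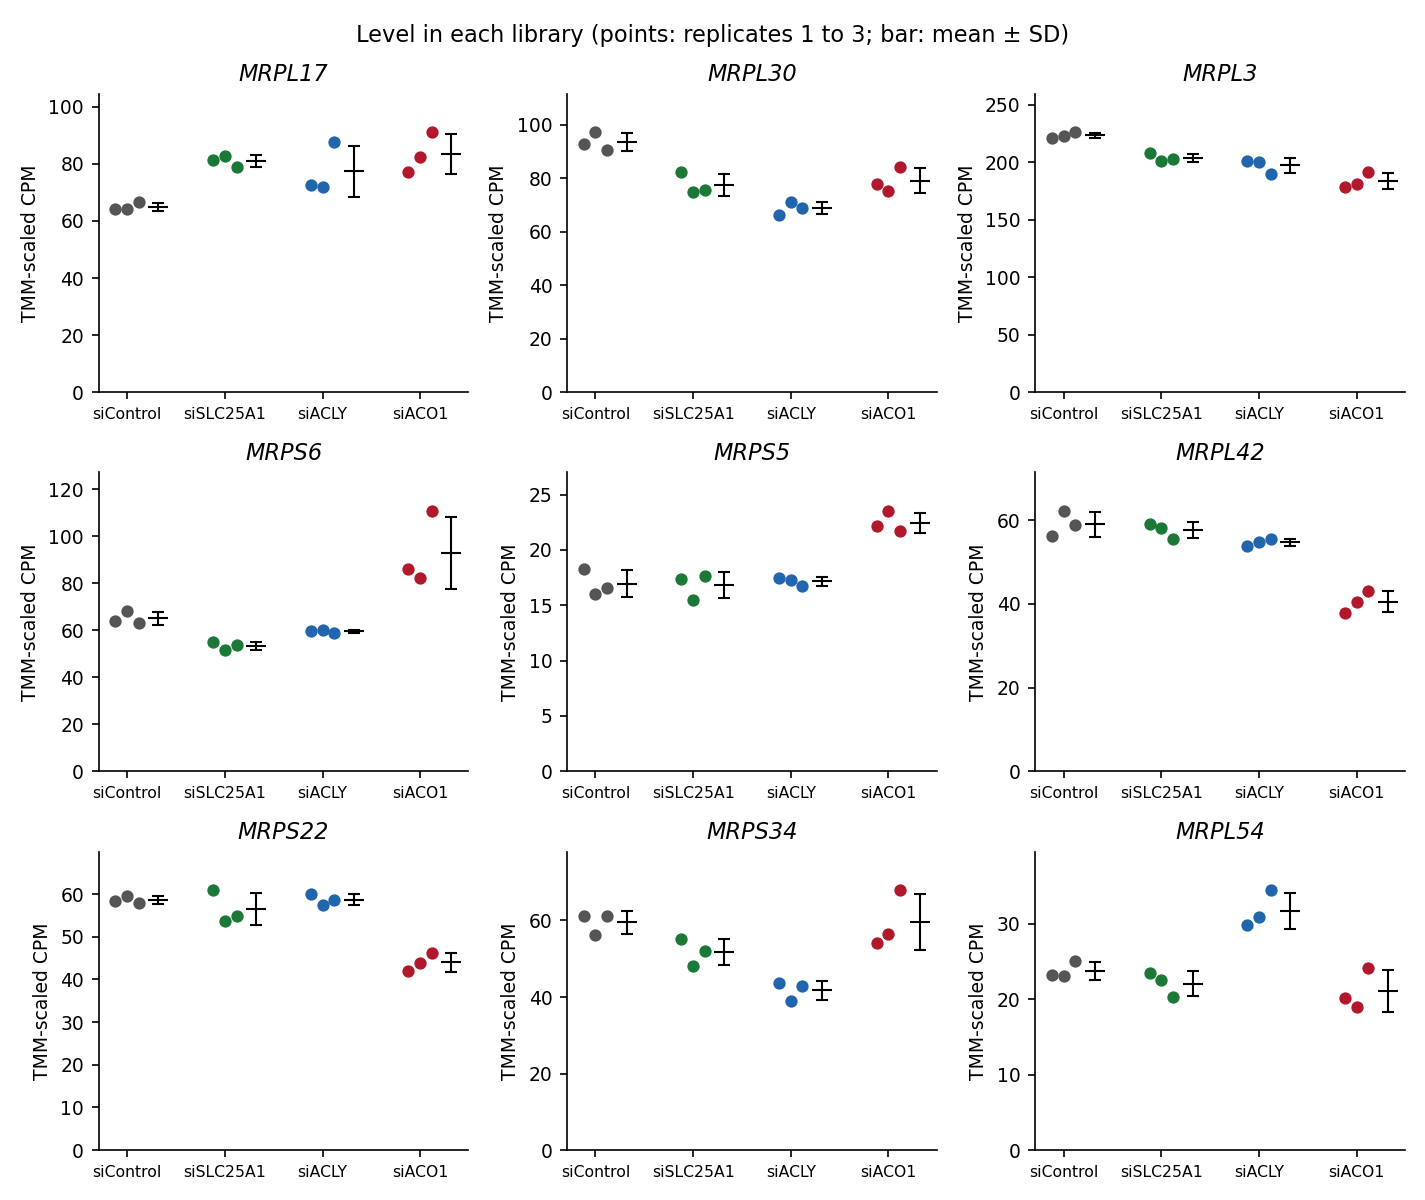
TMM-scaled CPM of 9 members in each of the 12 libraries (points, replicates 1 to 3 from left to right) with the mean ± SD of each group; each y axis starts at 0. MRPL17 is above siControl in all 9 knockdown libraries, MRPS6 is at 82.3 to 110.5 CPM in siACO1 against 63.0 to 68.3 in siControl, and MRPS34 is at 39.0 to 43.6 CPM in siACLY against 56.1 to 61.2.

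After knockdown of SLC25A1, the mitochondrial citrate carrier, 13 of the 73 members were called, 1 higher and 12 lower. Over all genes 19.6% were called (10.3% higher and 9.27% lower). The members' share was 17.8%, near that background, and 16.4% of the members were lower. With only the 2 groups in the fit, 27 members (37.0%; 2 higher and 25 lower) were called, against 25.8% of the genes tested there, so the position of the share relative to the background depended on which groups the fit held. The large subunit held 9 of the 13 and the small subunit 4. In each of the 13 the 3 knockdown libraries lay outside the range of the 3 control libraries. Such genes were not counted over all called genes, so this does not set the members apart. The bacterial-type proteins held 10 of the 44 tested (22.7%), and the mitochondria-specific ones 3 of 28 (10.7%); the difference between the classes was not tested.

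The 2 largest falls in siSLC25A1 were in small-subunit genes. MRPS6, which lies at the platform of the small subunit, was at 55.0, 51.6 and 53.5 CPM against 64.0, 68.3 and 63.0 in siControl, a log2 fold change of -0.29 (SE 0.08, adjusted p 0.0257). All 3 libraries were below the controls, yet the call was lost in 5 of the 6 fits that left out 1 library (siControl 1 or 2, or any siSLC25A1 library). MRPS9, whose bacterial counterpart reaches the decoding site, was at 38.8, 36.3 and 33.4 CPM against 41.3, 46.0 and 45.4 (log2 fold change -0.29, SE 0.06, adjusted p 0.00123), and this call held in each fit that left out 1 library and under each other setting tried at the same threshold. In the large subunit, MRPL34, one of its smallest proteins, was at 24.6, 23.1 and 22.2 CPM against 27.8, 28.3 and 28.1 (log2 fold change -0.27, SE 0.08, adjusted p 0.0113), lost without siSLC25A1 replicate 3. MRPL17 was the only rise.

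The siSLC25A1 count depended on the library left out, and so did the share of all genes called. It was 8 (11.0%) without siControl replicate 1, where 13.9% of the genes tested were called. It was 9 (12.3%) without siControl replicate 2 and 9 (12.3%) without siControl replicate 3, against 14.8% and 14.4%. It was 6 (8.22%) without siSLC25A1 replicate 2 and 6 (8.22%) without siSLC25A1 replicate 3, against 14.7% and 15.1%. Without siSLC25A1 replicate 1 it was 14 (19.2%), above the 16.2% of the genes tested there, so the position relative to the background changed with the library left out. MRPL17 was the single rise throughout these fits. With a correction for exon length the count was 14 (19.2%, with 3 higher and 11 lower), against 20.4% of all genes.

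After knockdown of ACLY, 22 of the 73 members were called, 7 higher and 15 lower, where 36.7% of all genes were called (18.4% higher and 18.3% lower). The members' share was 30.1%, with 9.59% higher and 20.5% lower. All 7 rises were in the large subunit, which had 9 falls among its 48 tested genes, and the small subunit had 6 falls and no rise among 24. The difference between the subunits was not tested. In each of the 22 the siACLY libraries did not overlap siControl, which was likewise not counted over all called genes. With library totals in place of TMM scaling the split was 11 higher and 9 lower. Of all genes called under that scaling 61.0% were higher, against 50.1% with TMM. Without siControl replicate 1, the count was 14 (19.2%), with 7 in each direction, against 30.1% of the genes tested there. With a correction for exon length it was 29 (39.7%, with 7 higher and 22 lower), against 38.4% of all genes. With only the 2 groups in the fit it was 38 (52.1%; 9 higher and 29 lower), against 43.96% of the genes tested there.

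The leading rises of siACLY came from different sites of the large subunit. MRPL54, a mitochondria-specific protein (ENSG00000183617.5, chromosome 19, 3762664 to 3768575, plus strand), was at 29.8, 30.9 and 34.4 CPM against 23.2, 23.0 and 25.1 in siControl. Its log2 fold change was 0.41 (SE 0.08, adjusted p 0.000115), while in siSLC25A1 (23.5, 22.5 and 20.3 CPM) and siACO1 (20.1, 18.9 and 24.2 CPM) the values overlapped the controls and it was not called. Without siACO1 replicate 3 it was lower in siACO1, at -0.29, and called. MRPL27 (ENSG00000108826.16, chromosome 17, 50367857 to 50373214, minus strand), whose bacterial counterpart reaches into the peptidyl transferase centre, was at 33.8, 34.2 and 33.6 CPM against 26.2, 25.9 and 24.4. That is a log2 fold change of 0.41 (SE 0.07, adjusted p 1.33e-05), with siACLY libraries that differ from each other by less than 1 CPM. MRPL10, the base of the stalk that recruits translation factors, was at 68.8, 70.7 and 69.9 CPM against 55.3, 56.9 and 54.5 (log2 fold change 0.33, SE 0.05, adjusted p 3.39e-06). MRPL9, uncertain because 38.5% of its exon bases overlap another gene, had a log2 fold change of 0.23 (SE 0.05, adjusted p 0.000576).

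MRPS34 had the largest fall of any member in siACLY. The gene encodes a mitochondria-specific protein of the small subunit needed for its stability (ENSG00000074071.15, chromosome 16, 1771890 to 1773155, minus strand). It was at 43.6, 39.0 and 42.8 CPM in siACLY against 61.1, 56.1 and 61.2 in siControl, a log2 fold change of -0.50 (SE 0.07, adjusted p 7.71e-06). The siSLC25A1 libraries lay between, at 55.1, 48.2 and 52.0 CPM (log2 fold change -0.20, SE 0.07, adjusted p 0.0551), and the siACO1 libraries, at 54.2, 56.4 and 67.8 CPM, overlapped siControl. MRPL30 (above) and MRPS31 (above) had the next largest falls. MRPL35 was at 67.6, 61.5 and 58.9 CPM against 74.6, 80.9 and 78.9 (log2 fold change -0.31, SE 0.05, adjusted p 3.07e-05). MRPL34 was at 23.4, 20.6 and 23.6 CPM against 27.8, 28.3 and 28.1 (log2 fold change -0.31, SE 0.07, adjusted p 0.00133). Both are bacterial-type proteins of the large subunit.

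After knockdown of ACO1, 25 of the 73 members were called, 7 higher and 18 lower, where 37.1% of all genes were called (17.8% higher and 19.3% lower). The members' share was 34.2%, with 9.59% higher and 24.7% lower. The large subunit had 3 rises and 11 falls among 48, and the small subunit 4 rises and 7 falls among 24. In 24 of the 25 the siACO1 libraries did not overlap siControl, again with no count over all called genes beside it. The exception was MRPL41, named after its values were seen. Without siACO1 replicate 3, 39 members (53.4%, against 37.3% of the genes tested there) were called, 7 higher and 32 lower, and the median log2 fold change of the members was -0.12 against -0.06. With library totals the split was 10 higher and 15 lower, where 59.5% of all called genes were higher, against 47.9% with TMM. With a correction for exon length 33 members (45.2%, with 7 higher and 26 lower) were called, against 39.0% of all genes.

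MRPS6 and MRPS5 had the largest rises in siACO1, both bacterial-type proteins of the small subunit. MRPS6 (ENSG00000243927.6, chromosome 21, 34073224 to 34143034, plus strand) was at 85.9, 82.3 and 110.5 CPM against 64.0, 68.3 and 63.0 in siControl. All 3 libraries were above the controls and replicate 3 was the highest, with a log2 fold change of 0.51 (SE 0.08, adjusted p 0.000118) that was 0.37 without replicate 3 and still called. MRPS5 (ENSG00000144029.14, chromosome 2, 95087207 to 95149434, minus strand), whose bacterial counterpart lines the entry of the mRNA channel, was at 22.1, 23.5 and 21.7 CPM against 18.3, 16.0 and 16.6. The log2 fold change was 0.40 (SE 0.07, adjusted p 6.42e-05), and 0.42 without replicate 3. MRPS5 stayed between 15.5 and 17.6 CPM in the siSLC25A1 and siACLY libraries, within the range of siControl or under it.

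In the large subunit, the called rises of siACO1 were MRPL17, MRPL57 and MRPL51. MRPL57, mitochondria-specific, was at 40.6, 44.2 and 50.8 CPM against 39.6, 35.9 and 35.6, so the lowest siACO1 library was just above the highest control. Its log2 fold change was 0.29 (SE 0.06, adjusted p 0.000698), and 0.19 without replicate 3. MRPL51, uncertain because 31.3% of its exon bases overlap another gene, was at 159, 163 and 199 CPM against 148, 142 and 146 (log2 fold change 0.26, SE 0.06, adjusted p 0.00226), and the log2 fold change was 0.15 without replicate 3.

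MRPL42, a mitochondria-specific protein of the large subunit, had the largest change of any member against siControl among those called. The gene (ENSG00000198015.14, chromosome 12, 93467488 to 93516213, plus strand) was at 37.95, 40.5 and 43.0 CPM in siACO1 against 56.2, 62.1 and 59.0 in siControl. The log2 fold change was -0.54 (SE 0.05, adjusted p 3.60e-09), and -0.59 without replicate 3. In siSLC25A1 (59.2, 58.3 and 55.5 CPM) and siACLY (53.9, 54.8 and 55.6 CPM) it was not called, though the siACLY libraries lay just below siControl (log2 fold change -0.11, SE 0.05, adjusted p 0.104). MRPS22, a mitochondria-specific protein of the small subunit (ENSG00000175110.14, chromosome 3, 139005806 to 139357223, plus strand), was also lowest in siACO1. It was at 42.0, 43.8 and 46.3 CPM in siACO1 against 58.5, 59.7 and 57.8 in siControl (log2 fold change -0.41, SE 0.05, adjusted p 3.56e-07), and its siACLY values of 59.97, 57.5 and 58.6 CPM overlapped siControl.

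The other falls of siACO1 that were largest were in bacterial-type proteins. MRPL19 was at 81.3, 84.1 and 83.5 CPM against 107, 111 and 104 (log2 fold change -0.37, SE 0.05, adjusted p 2.32e-07). MRPL18, which sits in the central protuberance of the large subunit, was at 53.9, 49.1 and 53.6 CPM against 66.3, 64.2 and 67.9 (log2 fold change -0.34, SE 0.05, adjusted p 7.61e-06). MRPS15 was at 71.5, 76.0 and 81.6 CPM against 99.9, 95.7 and 92.9 (log2 fold change -0.33, SE 0.05, adjusted p 1.81e-06). For other members named against siControl, the log2 fold changes in siACO1 without replicate 3 were 0.29 for MRPL17, -0.29 for MRPL30, -0.31 for MRPL3, -0.29 for MRPS31, -0.45 for MRPS22, -0.33 for MRPL58 and -0.26 for MRPS30, all called. In MRPL19, MRPL18 and MRPS15 no siACO1 library reached a control library, replicate 3 included. The log2 fold changes of these 3 without that replicate were -0.38, -0.37 and -0.38.

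In contrasts of 1 knockdown with another, which leave out the controls, a log2 difference of at least 0.5 was called for 1 member (siSLC25A1 against siACLY), 2 (siSLC25A1 against siACO1) and 3 (siACLY against siACO1), where 9.6%, 15.2% and 15% of all genes were. Between siSLC25A1 and siACLY, 18 members were called (5 higher in siSLC25A1, 13 lower), where 33.8% of all genes were called. MRPL54 (log2 difference -0.51, SE 0.08, adjusted p 1.11e-05), MRPL10 (-0.45, SE 0.05, adjusted p 2.97e-08) and MRPL27 (-0.41, SE 0.07, adjusted p 1.82e-05) were lower in siSLC25A1 than in siACLY. MRPS34 (0.31, SE 0.07, adjusted p 0.00239), MRPS18C (0.25, SE 0.09, adjusted p 0.0261, uncertain counting) and MRPL30 (0.17, SE 0.05, adjusted p 0.00933) were higher. The MRPL30 call was lost without siSLC25A1 replicate 1 or siACLY replicate 1, and that of MRPS18C without siSLC25A1 replicate 1 or 3 or siACLY replicate 3. The count was 10 (13.7%) without siSLC25A1 replicate 3, against 28.6% of the genes tested there. With library totals the split was 2 higher and 18 lower, where 41.0% of all called genes were higher. With a correction for exon length it was 13 higher and 10 lower, where 52.9% of all called genes were higher.

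Between siSLC25A1 and siACO1, 28 members were called (12 higher in siSLC25A1, 16 lower), where 42.1% of all genes were called. MRPS6 showed the widest difference of any called member, at 51.6 to 55.0 CPM in siSLC25A1 and 82.3 to 110.5 in siACO1 (log2 difference -0.80, SE 0.08, adjusted p 1.16e-06). MRPL51 (-0.47, SE 0.06, adjusted p 4.22e-06) and MRPL57 (-0.44, SE 0.07, adjusted p 2.89e-06) came next. MRPL42 (0.51, SE 0.06, adjusted p 1.09e-08), MRPS22 (0.36, SE 0.05, adjusted p 2.94e-06) and MRPL19 (0.33, SE 0.05, adjusted p 1.76e-06) were higher in siSLC25A1. Without siACO1 replicate 3 the split turned to 21 higher and 9 lower. It was 12 and 21 with library totals, where 42.2% of all called genes were higher. With a correction for exon length the split was 20 and 12, where 51.4% of all called genes were higher.

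Between siACLY and siACO1, 35 members were called (22 higher in siACLY, 13 lower), against 42.1% of all genes. MRPL54 (log2 difference 0.58, SE 0.08, adjusted p 8.49e-07), MRPL42 (0.43, SE 0.05, adjusted p 1.73e-07) and MRPS22 (0.42, SE 0.05, adjusted p 2.43e-07) were higher in siACLY. MRPS6 (-0.65, SE 0.08, adjusted p 9.93e-06), MRPS34 (-0.51, SE 0.07, adjusted p 5.09e-06) and MRPS5 (-0.39, SE 0.07, adjusted p 9.25e-05) were lower. MRPS34 is low in siACLY and MRPS6 and MRPS5 are high in siACO1, by the values given above. The direction of the split depended on single siACO1 libraries: it was 16 higher and 18 lower without siACO1 replicate 1, 17 and 20 without replicate 2, and 27 and 13 without replicate 3.

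The members were also grouped by their site on the ribosome, in groups too small to be set apart from the share of all genes called (19.6%, 36.7% and 37.1% in siSLC25A1, siACLY and siACO1). In the stalk (MRPL10, MRPL11 and MRPL12), which recruits the elongation factors, MRPL10 rose in siACLY while MRPL11 and MRPL12 had log2 fold changes of -0.07 (SE 0.05, adjusted p 0.309) and -0.06 (SE 0.07, adjusted p 0.478). No stalk gene was called in siSLC25A1 or siACO1 against siControl. All 3 were lower in siSLC25A1 than in siACO1, MRPL10 by 0.18 (SE 0.05, adjusted p 0.00406), MRPL11 by 0.16 (SE 0.06, adjusted p 0.0194) and MRPL12 by 0.21 (SE 0.07, adjusted p 0.0122) on the log2 scale. Without siACO1 replicate 3 the MRPL11 and MRPL12 calls were lost. Of the 7 genes of the central protuberance, where the subunits meet above the transfer RNAs, none was called in siSLC25A1 and 2 were called in each of siACLY and siACO1. In siACLY these were MRPL27 (higher) and MRPL18 (lower, -0.14, SE 0.05, adjusted p 0.0358, lost without siControl replicate 1 or 3 or siACLY replicate 2). In siACO1 they were MRPL18 and MRPL58, both lower, and without siACO1 replicate 3 MRPL48 was called as well (-0.25, adjusted p 0.0212).

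MRPL58, a release-factor-like enzyme that frees stalled ribosomes, was at 35.98, 34.6 and 37.9 CPM in siACO1 against 47.7, 41.8 and 43.1 in siControl, with no overlap (log2 fold change -0.29, SE 0.06, adjusted p 0.000373). Among the 4 tested genes at the peptide exit, MRPL17 alone was called in each knockdown, and MRPL22, MRPL24 and MRPL47 were called in none, except MRPL47 in siACO1 without replicate 3 (-0.15). Of the 3 MRPS18 paralogs, which occupy different places in the 2 subunits, MRPS18A was called in no comparison with siControl. MRPS18C was called in siACLY alone (-0.26, SE 0.08, adjusted p 0.0173, lost without siControl replicate 1 or 2 or siACLY replicate 3), and MRPS18B was listed at 0. MRPS30 was lower in siACO1, at 78.8, 83.3 and 78.9 CPM against 96.9, 95.8 and 98.3 (log2 fold change -0.27, SE 0.05, adjusted p 1.80e-05), with all 3 siACO1 libraries below siControl. MRPS36, of the 2-oxoglutarate dehydrogenase complex, was called in no comparison with siControl.

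The mitochondrial ribosome holds 5 further proteins with other symbols, all tested. DAP3, which binds GTP in the small subunit, was higher in siACO1 (log2 fold change 0.12, SE 0.04, adjusted p 0.0165), a call lost without siACO1 replicate 3 (0.09) or siControl replicate 2. PTCD3 was lower in siACLY (-0.12, SE 0.04, adjusted p 0.0180), and CHCHD1 was lower in siSLC25A1 (-0.24, SE 0.07, adjusted p 0.0237) and siACLY (-0.20, SE 0.07, adjusted p 0.0348). The PTCD3 call and both CHCHD1 calls were lost when some single libraries were left out (2 of 6 for PTCD3, 4 of 6 for each CHCHD1 call). AURKAIP1 and GADD45GIP1 were called in no comparison with siControl, except GADD45GIP1 in siACO1 without replicate 3 (-0.20).

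Genes that serve the mitochondrial ribosome are described as lists beside the members, to be read against the 19.6%, 36.7% and 37.1% of all genes called in siSLC25A1, siACLY and siACO1, and the 37.3% called in siACO1 without replicate 3. Of 25 tested assembly factors, which modify the ribosomal RNAs and join the proteins to them, 2 fell in siSLC25A1, 4 rose and 5 fell in siACLY, and 2 rose and 12 fell in siACO1 (8%, 36% and 56% called). Leaving out siACO1 replicate 3 gave 2 rises and 13 falls there. The median log2 fold change of this list in siACO1 was -0.14. TRUB2, a pseudouridine synthase of mitochondrial RNA, was at 32.3, 35.0 and 34.2 CPM in siACO1 against 70.2, 72.2 and 74.7 in siControl, and its log2 fold change of -1.09 (SE 0.05, adjusted p 6.12e-16) exceeded that of any member. It was -1.10 without replicate 3, and in siSLC25A1, at 61.3, 56.8 and 60.4 CPM, TRUB2 was lower by 0.28 (SE 0.05, adjusted p 9.63e-05). GTPBP10, a GTPase of large-subunit assembly, fell by 0.53 in siACO1 (SE 0.07, adjusted p 4.65e-07), from 30.7 to 34.0 CPM in siControl to 21.1 to 24.1. NGRN, uncertain in counting, had a log2 fold change of -0.64 (SE 0.07, adjusted p 1.76e-08) there.

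Of 17 translation factors and related genes, 2 fell in siSLC25A1, 1 rose and 4 fell in siACLY, and 1 rose and 7 fell in siACO1 (11.8%, 29.4% and 47.1% called). Leaving out siACO1 replicate 3 gave 9 falls and no rise. TUFM, the mitochondrial elongation factor that delivers transfer RNAs, was lower in all 3 knockdowns (log2 fold changes -0.21, -0.15 and -0.26, SE 0.04 each, adjusted p 0.000586, 0.00664 and 2.37e-05). LRPPRC, which stabilises mitochondrial mRNAs, was at 515, 530.0 and 485 CPM in siACO1 against 688, 696 and 704 in siControl (-0.45, SE 0.04, adjusted p 2.70e-10), so no siACO1 library reached a control library. Without siACO1 replicate 3 the log2 fold changes were -0.33 for TUFM and -0.42 for LRPPRC. Of 10 genes that copy or transcribe mitochondrial DNA, 2, 3 and 5 fell in siSLC25A1, siACLY and siACO1 (20%, 30% and 50%) and none rose, with 7 falls in siACO1 without replicate 3. POLRMT, the mitochondrial RNA polymerase (uncertain counting), had log2 fold changes of -0.14, -0.43 and -0.33 (SE 0.05 each, adjusted p 0.0292, 2.31e-08 and 2.28e-06); the first call was lost in 4 of the 6 fits that left out 1 library.

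Of 10 tested regulators of mitochondrial biogenesis, which include the factors whose motifs were searched above, 2, 4 and 7 fell in siSLC25A1, siACLY and siACO1 (20%, 40% and 70%) and none rose, with 8 falls in siACO1 without replicate 3. YY1 was at 123, 125 and 129 CPM in siACLY and 121, 118 and 127 in siACO1 against 160, 161 and 161 in siControl. All 6 libraries were below the controls, with log2 fold changes of -0.35 (SE 0.04, adjusted p 5.79e-08) and -0.40 (SE 0.04, adjusted p 6.04e-09). ESRRA, a nuclear receptor that acts with PGC-1 coactivators, had log2 fold changes of -0.13 (SE 0.05, adjusted p 0.0388), -0.50 (SE 0.05, adjusted p 9.80e-10) and -0.40 (SE 0.05, adjusted p 4.24e-08) in siSLC25A1, siACLY and siACO1. PPARGC1B, 1 of those coactivators, had log2 fold changes of -0.25 (SE 0.08, adjusted p 0.0326), -0.55 (SE 0.08, adjusted p 4.39e-06) and -0.52 (SE 0.08, adjusted p 1.09e-05). The siACO1 log2 fold changes without replicate 3 were -0.43 for YY1, -0.41 for ESRRA and -0.41 for PPARGC1B. The siSLC25A1 calls of ESRRA and PPARGC1B were each lost in 5 of the 6 fits that left out 1 library. NRF1 itself was called in none of the 3 (log2 fold changes 0.02, -0.09 and 0.02, SE 0.07 each, adjusted p 0.876, 0.336 and 0.873).

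The 13 mRNAs encoded by mitochondrial DNA, which are what the mitochondrial ribosome translates, were all tested, in libraries made from poly(A)-selected RNA. In siSLC25A1 4 fell, in siACLY 6 fell, and in siACO1 1 rose and 1 fell (30.8%, 46.2% and 15.4% called), or 1 and 3 without replicate 3. MT-CO3 was lower in siSLC25A1 (log2 fold change -0.37, SE 0.05, adjusted p 2.62e-05) and siACLY (-0.20, SE 0.05, adjusted p 0.00655), and MT-CO1 was lower in all 3 (-0.14, -0.22 and -0.17, SE 0.05 each, adjusted p 0.0377, 0.000440 and 0.00394). The siSLC25A1 call of MT-CO1, whose groups overlapped, was lost in 4 of the 6 fits that left out 1 library, and MT-CO3 was lower in siACO1 without replicate 3 (-0.12, called). Counting is uncertain for both, since 44.96% (MT-CO3) and 66.7% (MT-CO1) of their 31-base stretches occur in other genes. The cytosolic ribosomal proteins stood beside the members with more calls against siControl: of 76 tested, 2 rose and 43 fell in siSLC25A1, 1 rose and 27 fell in siACLY, and 2 rose and 37 fell in siACO1 (59.2%, 36.8% and 51.3% called). Leaving out siACO1 replicate 3 gave 1 rise and 58 falls. Their median log2 fold changes were -0.20, -0.13 and -0.18, against -0.08, -0.06 and -0.06 in the members, and the difference between the lists was not tested. Between siSLC25A1 and siACLY 11.8% of them were called, against 24.7% of the members and 33.8% of all genes. Comparing siSLC25A1 and siACLY with siACO1, 22.4% and 19.7% were called, against 38.4% and 47.9% of the members and 42.1% of all genes each. Without siACO1 replicate 3 it was 44.7% and 57.9%, against 41.1% and 54.8% of the members and 40.3% and 41.4% of all genes. The summed level of the cytosolic ribosomal proteins was 56519 ± 617 CPM in siControl, 48841 ± 985 in siSLC25A1, 51414 ± 2005 in siACLY and 49011 ± 5156 in siACO1 (SD, n = 3). The siACO1 sums were 46007, 46061 and 54964 CPM, so replicate 3 stood apart here too, and the mean of the other two was 46034.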

How the data were processed

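Gene expression was measured by RNA sequencing of poly(A)-selected RNA in 12 libraries of MiaPaCa-2 cells, 3 for each siRNA. The deposited table holds raw read counts per gene, per the file headers. The submitters' processing notes name CASAVA, FastQC, Trim Galore, STAR 2.7.0e and DESeq2 and the builds GRCm39 and GRCh38, with no role; the annotation release and the use of strand are not given in the sources used here. Symbols came from a table of gene names (62700 of 70116 rows, 89.4%), and biotype, coordinates and exon lengths from GENCODE 29 on GRCh38. Samples were grouped by the labelled siRNA.

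Genes were kept by filterByExpr (16197 genes), scaled by TMM and fitted as 4 groups of 3 in edgeR 4.0.16, under R 4.3.3, by robust quasi-likelihood (8 residual degrees of freedom), with two-sided tests with Benjamini-Hochberg adjustment over all genes tested; the common biological coefficient of variation was 4.89%. Adjusted p-values in the text are from this fit, and CPM are TMM-scaled. Counts are relative to a library's total, so a change in RNA content per cell would go unseen. Alternatives were size factors by RLE, library totals, other filters, DESeq2 1.42.0, a replicate block, fits of 2 groups, an offset for exon length (loess span 0.3), a minimum change of 0.5 and leaving out each library; the count without the uncertain members was chosen after seeing the data.

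The members, lists and naming rule were chosen with earlier results of these data known. Named are the 5 largest rises and falls against siControl and the 3 largest each way between knockdowns among called members with at least 5 CPM in the higher group, members with a site or role given in the text, the 3 highest and lowest per length, those that failed the filter, those called in 1 direction in all 3 comparisons, and the 3 largest called changes of the other lists (not all are printed). In counts simulated for siACLY against siControl over 15828 genes, edgeR called 71.4% of 98 genes with a log2 change of 1, 67.3% of 98 with 0.5 and 3 of 15632 unchanged ones. The simulation changed 200 genes drawn at random, where 36.7% of all genes were called in the data. Its rates therefore do not tell what share of changed members would be called. The 12 pairs of replicates of a group differed by more than sampling noise, with chi-square per degree of freedom from 2.27 to 12.1 over genes with a count in either library.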

Additional observations from a re-analysis of the deposited data

How the results depend on the processing

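Over single genes, 3840 values under settings other than leaving out a library stayed on their side of the threshold. Those of them that were called also kept their direction. Another 114 passed the threshold newly and 53 lost it. Of the called values 1 turned its direction, RPS16 between siSLC25A1 and siACO1 under the offset for exon length (0.1158), and the cause was not tested. Directions of values that were not called were not compared. With only the 2 groups compared in the fit, 27 members (37.0%) were called in siSLC25A1 and 38 (52.1%) in siACLY against siControl, where 25.8% and 43.96% of the genes tested were called. At a log2 change of at least 0.5 the counts were 0 (siSLC25A1), 1 (siACLY) and 2 (siACO1) against siControl, and 1 (siSLC25A1 against siACLY), 2 (siSLC25A1 against siACO1) and 3 (siACLY against siACO1). With library totals the median log2 fold change of the members was -0.0189 in siACLY and -0.0085 in siACO1 against siControl, -0.0507 between siSLC25A1 and siACLY and -0.0769 between siSLC25A1 and siACO1; with the offset for exon length the last 2 were 0.0279 and 0.0449; the cause was not tested. Library totals moved the median of all genes in the same direction and by similar amounts. It was 0.0515 in siACLY and 0.0547 in siACO1, against 0.0077 and 0.0063 with TMM scaling. Between siSLC25A1 and siACLY it was -0.0526 against -0.0132, and between siSLC25A1 and siACO1 -0.0569 against -0.0128. The members' medians with TMM scaling were -0.0627, -0.055, -0.0107 and -0.0313 in the same order. Leaving out each library in turn gave 6 to 14 members called in siSLC25A1, 14 to 19 in siACLY and 22 to 39 in siACO1, and 10 to 15, 24 to 30 and 31 to 40 between the knockdowns in the order above. In these fits 13.9% to 16.2%, 30.1% to 30.9% and 30.7% to 37.3% of all genes were called against siControl. Between the knockdowns it was 28.1% to 28.8%, 36.4% to 40.3% and 36.3% to 41.4%. The members' medians ran from -0.1084 to -0.0716, -0.0875 to -0.0563 and -0.1167 to -0.0167 against siControl, and from -0.0343 to 0.0058, -0.0489 to 0.032 and -0.0847 to 0.0244 between knockdowns, with the last 2 highs without siACO1 replicate 3. Without the members of uncertain counting, 11, 17, 24, 16, 25 and 30 of 60 were called. The replicate numbers did not pair the libraries (same-number correlations of deviations from -0.034 to 0.0672 over 18 pairs), and a replicate block gave 16, 26, 27, 20, 28 and 37 members called. These were 21.9%, 35.6%, 37.0%, 27.4%, 38.4% and 50.7% of the tested members. With the block, 20.2%, 37.3%, 37.6%, 34.5%, 42.6% and 42.4% of all genes were called. Low counts limit MRPS24, and why the 5 members that failed the filter have so few counts was not tested.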
